A study of Mus musculus with 9 samples.

Results

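The data described here are the expression levels of 10 genes that encode transcription factors of mesenchymal cells and of the epithelial-mesenchymal transition: Twist1, Twist2, Snai1, Snai2, Zeb1, Zeb2, Prrx1, Prrx2, Ebf1 and Tcf21. The members were all probesets whose only annotated gene symbol was 1 of these 10, which gave 28 of the 45037 probesets on the arrays. The levels were measured on Affymetrix whole-genome mouse arrays in 3 lines of Balb/c-3T3 mouse fibroblasts, an immortalised cell line, with 3 arrays a line and 9 in all. The v-Src line carried a stably transfected plasmid (pMvSrc) for v-Src, the viral tyrosine kinase of Rous sarcoma virus. The STAT3-C line carried pRc/CMV-STAT3C, from which a constitutively active form of the transcription factor STAT3 was expressed under the CMV promoter. The control cells were the unmodified line, and all lines were grown in the same medium with bovine calf serum. Each array held RNA pooled from dishes of 1 of 3 passages of 1 line, so that the spread between replicates was that of passages and not of independently derived lines. Whether the transfected lines were single clones was not given in the sources used here, and no line transfected with an empty vector was analysed here, so that the effect of transfection and selection cannot be told apart from that of the transgene.

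TWIST1 and TWIST2 are basic helix-loop-helix proteins that bind E-boxes as dimers with E proteins. SNAI1 and SNAI2 are zinc finger repressors, and ZEB1 and ZEB2 are zinc finger and homeodomain repressors, which also bind E-boxes and are known for silencing the E-cadherin gene in epithelial cells that turn mesenchymal. PRRX1 and PRRX2 are paired-related homeodomain proteins of limb and craniofacial mesenchyme, EBF1 is an early B-cell factor that acts in B-cell, fat cell and stromal cell development, and TCF21 is a basic helix-loop-helix factor of visceral and cardiac fibroblast precursors. Fibroblasts are mesenchymal already, so that most of these genes are known to be expressed in such cells without any transformation.

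Of the 10 genes, 8 had entries among the RefSeq promoter windows of build GRCm38.p6, with 12 windows in all. In each window the 250 bases before the transcription start were searched on both strands for 4 motifs. The motifs were the STAT motif TTCNNNGAA, the E-box CACCTG bound by SNAI and ZEB proteins, the E-box CATATG bound by TWIST proteins, and the EBF motif, TCCC and GGGA with 2 bases of any kind between them. TTCNNNGAA was found in 7.02% of the 32851 windows of all genes, CACCTG in 17.2%, CATATG in 3.46% and the EBF motif in 0.779%. The windows shown are those of Twist2 and Ebf1, the members whose leading probesets differed most between lines, and of Snai1 and Zeb2, the members with a motif match. They are written 5′ to 3′ on the strand of the gene, with motif matches in capitals. That of Twist2 is chr1:91801211-91801460 on the plus strand, the first of Ebf1 is chr11:44617850-44618099 on the plus strand, that of Snai1 is chr2:167537945-167538194 on the plus strand, and the second of Zeb2 is chr2:45113280-45113529 on the minus strand.
Twist2: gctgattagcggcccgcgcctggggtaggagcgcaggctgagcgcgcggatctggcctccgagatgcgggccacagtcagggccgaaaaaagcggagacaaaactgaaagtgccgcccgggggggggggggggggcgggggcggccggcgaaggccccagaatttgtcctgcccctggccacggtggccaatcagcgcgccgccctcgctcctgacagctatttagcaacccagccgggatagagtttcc
Ebf1: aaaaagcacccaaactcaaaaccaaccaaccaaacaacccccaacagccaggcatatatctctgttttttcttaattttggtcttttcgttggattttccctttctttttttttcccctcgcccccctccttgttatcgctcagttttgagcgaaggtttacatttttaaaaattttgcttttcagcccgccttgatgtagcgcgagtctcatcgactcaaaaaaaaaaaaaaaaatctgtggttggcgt
Snai1: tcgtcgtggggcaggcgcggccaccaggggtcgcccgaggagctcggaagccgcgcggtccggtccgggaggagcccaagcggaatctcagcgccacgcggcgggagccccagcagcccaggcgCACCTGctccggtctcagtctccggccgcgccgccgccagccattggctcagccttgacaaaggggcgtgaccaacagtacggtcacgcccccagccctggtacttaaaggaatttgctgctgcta
Zeb2: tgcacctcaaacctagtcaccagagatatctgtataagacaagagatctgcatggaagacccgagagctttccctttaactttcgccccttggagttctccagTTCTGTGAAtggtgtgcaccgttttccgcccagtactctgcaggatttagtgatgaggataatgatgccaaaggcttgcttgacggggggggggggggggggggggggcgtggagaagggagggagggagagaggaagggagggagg
The windows of Twist2 and Ebf1 held no match to any of the 4 motifs. The Snai1 window held the E-box CACCTG at position -126 from the start. The Zeb2 window held TTCTGTGAA, a match to TTCNNNGAA, at position -147, and an overlapping window of Zeb2 held the same match. No match overlapped another motif. A match is a description of these letters, and the absence of a match says nothing of the factor, since only these bases were read.

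The arrays of a line were alike, with Pearson correlations over all probesets of 0.990 to 0.995 within lines, 0.971 to 0.977 between v-Src and STAT3-C arrays, and 0.943 to 0.948 between either transfected line and control. Array medians lay between 6.27 and 6.39 on the log2 scale and lower quartiles between 5.07 and 5.16, and a level below the lower quartile is called near background here. Of 4 Stat3 probesets, 1460700_at was higher in both the v-Src line (log2 difference 1.30, adjusted p = 0.000504) and the STAT3-C line (0.72, adjusted p = 0.00827) and 1426587_a_at was higher in the v-Src line only by the threshold, with a direct log2 difference between v-Src and STAT3-C of 1.29 (adjusted p = 0.00158). The other 2 Stat3 probesets were not called. The 2 probesets of mouse Src were not called either, and whether mouse probes read the viral gene or the STAT3-C transgene was not given in the sources used here. Vim, a filament of mesenchymal cells, had mean log2 levels of 13.4 in v-Src, 13.2 in STAT3-C and 13.4 in control cells. The collagen gene Col1a2 averaged 13.0 in v-Src, 12.7 in STAT3-C and 13.3 in control cells and was called lower in STAT3-C (log2 difference -0.61, adjusted p = 0.00104). The fibroblast marker Fap lay near background in every line, at 4.35, 4.22 and 4.50. Of 10 fibroblast markers, 1 was called higher and 5 lower in v-Src cells, where 9.54% and 10.4% of all genes were. In STAT3-C cells 1 was higher and 6 lower, beside 11.9% and 10.3% of all genes. All 10 are also among the mesenchymal effector genes described below. Markers called lower included the surface protein gene Thy1 (log2 difference -5.17 in v-Src and -5.18 in STAT3-C). Others were the receptor genes Pdgfrb (-5.06 and -1.93) and Pdgfra (-2.08 and -1.34) and the collagen gene Col1a1 (-1.34 and -1.86), each given for v-Src and then STAT3-C. The summed linear level of the 10 markers was 35183 to 43489 on v-Src arrays, 39954 to 40222 on STAT3-C arrays and 51397 to 56010 on control arrays. Of 6 leukocyte markers, Cd14 was called higher in both transfected lines and Cd68 in the STAT3-C line, with summed linear levels of 1441 to 1836 on v-Src arrays, 1349 to 2072 on STAT3-C arrays and 644 to 691 on control arrays. The defining leukocyte genes Ptprc and Itgam stayed near background in all lines. None of 5 endothelial or 6 epithelial markers was called against control, and the part of other cell types in the results on the 10 genes was not tested beyond these levels. In bulk RNA, fewer cells that express a gene and less RNA per cell cannot be told apart.

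A probeset was called when its fold change was at least 1.5 and its p-value, from limma with Benjamini-Hochberg adjustment over all 45037 probesets, was under 0.05. Against control, 3 of the 28 member probesets were called higher and 9 lower in v-Src cells, where 8.75% and 8.10% of all probesets were. In STAT3-C cells, 3 were called higher and 6 lower, against 9.68% and 8.58% of all probesets. Without STAT3-C replicate 1 or control replicate 3, only 1 probeset was called higher in STAT3-C cells. With each gene read by its leading probeset, the one of highest mean over the 9 arrays, v-Src cells had 2 of the 10 genes higher (Snai1 and Zeb2) and 4 lower (Twist2, Snai2, Prrx1 and Ebf1), beside 9.54% and 10.4% of all 18193 genes. STAT3-C cells had 2 higher (Snai1 and Prrx2) and 2 lower (Twist2 and Ebf1), beside 11.9% and 10.3% of all genes. Genes of both directions were thus called in both lines, and the median log2 difference over the 28 probesets was -0.03 in v-Src and -0.07 in STAT3-C cells, beside 0.03 and 0.02 over all probesets. These 2 comparisons share the 3 control arrays. Twist2 and 2 probesets of Ebf1 are on the list of repressed probesets that the study drew from these same arrays, so that their counts are not independent of that choice.

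**Figure D1:**
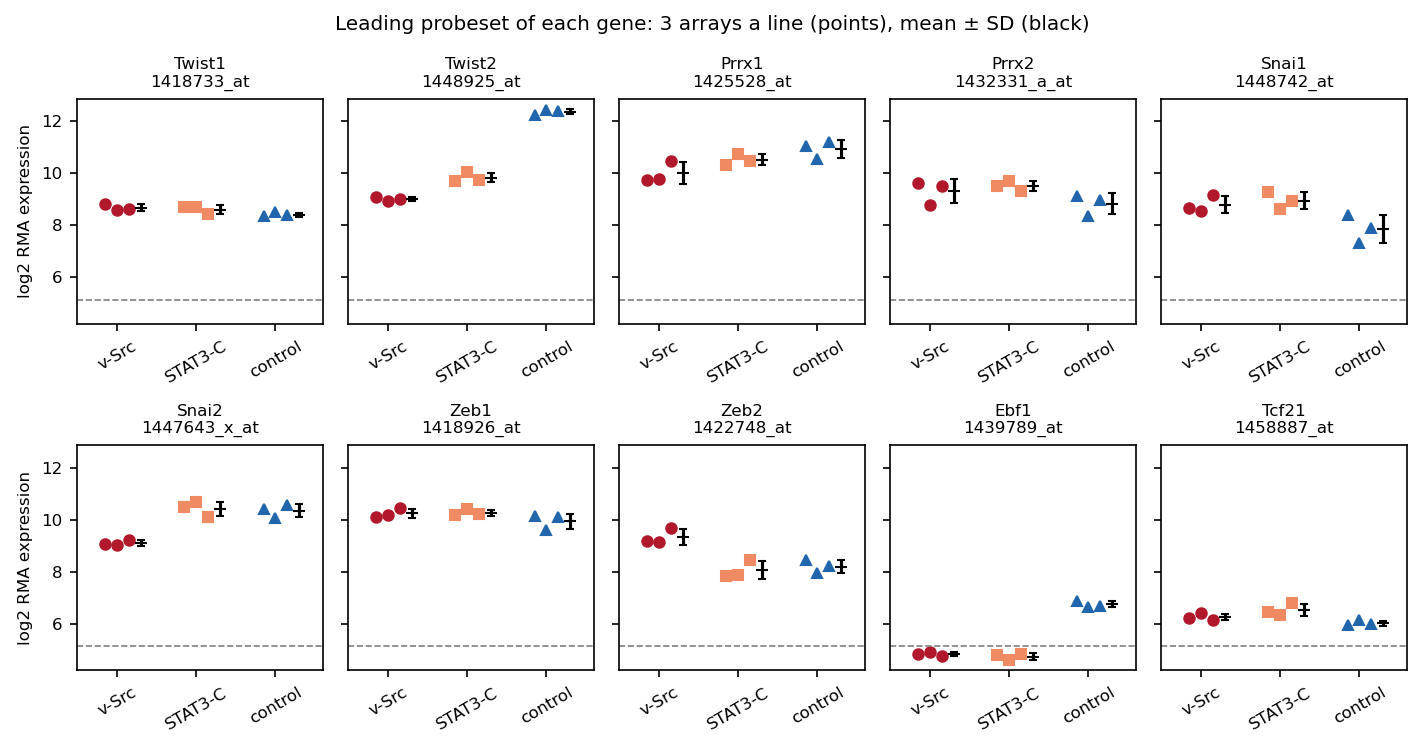
Log2 RMA expression (y axis) of the leading probeset of each of the 10 genes on the 3 arrays of the v-Src, STAT3-C and control lines (points), with the mean and SD in black and the mean lower quartile of the arrays as a dashed line. Twist2 and Ebf1 lie lower in both transfected lines than in control, Snai2 lies lower and Zeb2 higher in v-Src than in the other lines, and Twist1, Zeb1 and Tcf21 lie close together in the 3 lines.

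Twist2 fell in both transfected lines, and its paralog Twist1 was not called in either. Twist2, which restrains osteoblast and muscle differentiation in mesenchymal precursors, was read by 1 probeset, 1448925_at, at log2 levels of 9.10, 8.94 and 9.01 on the v-Src arrays, 9.72, 10.03 and 9.74 on the STAT3-C arrays, and 12.26, 12.46 and 12.40 on the control arrays. The 3 lines did not overlap, control was highest and v-Src lowest, and no array came near background. The means were 9.02 ± 0.08 in v-Src, 9.83 ± 0.17 in STAT3-C and 12.37 ± 0.10 in control cells (SD, n = 3 each). Twist2 was 10.2-fold lower in v-Src than in control cells (log2 difference -3.36, SE 0.09, adjusted p = 1.71e-06) and 5.81-fold lower in STAT3-C than in control cells (-2.54, SE 0.11, adjusted p = 4.51e-06). The step between the transfected lines was itself called, with v-Src 1.76-fold below STAT3-C (-0.82, SE 0.11, adjusted p = 0.00254). Twist1, which is needed for cranial mesenchyme and limb growth, was read by 1418733_at at 8.82, 8.58 and 8.61 in v-Src, 8.71, 8.68 and 8.41 in STAT3-C, and 8.34, 8.50 and 8.38 in control cells. The v-Src arrays lay just above the control arrays and the STAT3-C arrays overlapped them, and neither log2 difference passed the test (0.26, SE 0.09, adjusted p = 0.0737 for v-Src and 0.20, SE 0.11, adjusted p = 0.224 for STAT3-C).

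Ebf1 fell to near background in both transfected lines. Of its 5 probesets, 4 were called lower in each line and the remaining one, 1457441_at, was not. Probeset 1448293_at read 3.99, 4.22 and 4.10 on the v-Src arrays, 3.96, 4.17 and 3.94 on the STAT3-C arrays, and 7.88, 7.62 and 7.72 on the control arrays. The transfected lines overlapped each other and stood far below control. Probeset 1416301_a_at gave the same picture, at 3.68, 3.52 and 3.66 in v-Src, 3.60, 3.35 and 3.62 in STAT3-C, and 7.24, 7.06 and 7.21 in control cells. The fall in 1416301_a_at was 11.7-fold in v-Src (log2 difference -3.55, SE 0.09, adjusted p = 1.2e-06) and 12.5-fold in STAT3-C (-3.65, SE 0.11, adjusted p = 4.71e-07), both against control. The leading probeset, 1439789_at, showed a smaller fall, at 4.83, 4.89 and 4.73 in v-Src, 4.78, 4.59 and 4.82 in STAT3-C, and 6.87, 6.65 and 6.69 in control cells. Its log2 difference was -1.92 in v-Src (SE 0.09, adjusted p = 1.68e-05) and -2.01 in STAT3-C (SE 0.11, adjusted p = 9.54e-06). Probeset 1416302_at fell by 2.41 and 2.35 on the log2 scale in v-Src and STAT3-C cells. All 4 lay below the lower quartile on every array of the transfected lines, so that these falls are lower bounds. Probeset 1457441_at lay close to the lower quartile in all lines, control included, with log2 differences of -0.20 in v-Src (adjusted p = 0.228) and -0.19 in STAT3-C (adjusted p = 0.173). Between the transfected lines no Ebf1 probeset was called, and the log2 differences of v-Src minus STAT3-C lay between -0.05 and 0.10.

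The SNAI repressors differed from each other. Snai1 rose in both transfected lines, whereas Snai2 fell in v-Src cells and was not called in STAT3-C cells. Snai1, read by 1448742_at, lay at log2 levels of 8.66, 8.53 and 9.15 in v-Src, 9.27, 8.63 and 8.93 in STAT3-C, and 8.37, 7.29 and 7.90 in control cells. Each transfected line lay above the control arrays, which were themselves spread over more than 1 log2 unit. The rise was 1.90-fold in v-Src (log2 difference 0.93, SE 0.28, adjusted p = 0.0462) and 2.13-fold in STAT3-C (1.09, SE 0.27, adjusted p = 0.0168), both against control. The call in v-Src was lost without v-Src replicate 1, 5 or 6 or control replicate 2 or 3 and after median centring (adjusted p = 0.0649), and that in STAT3-C without STAT3-C replicate 1 or 3 or control replicate 3. Snai2, which is expressed in neural crest and its mesenchymal derivatives, was read by 2 probesets. The leading one, 1447643_x_at, whose suffix marks probes that may also read other sequences, lay at 9.08, 9.03 and 9.23 in v-Src, 10.49, 10.67 and 10.12 in STAT3-C, and 10.43, 10.08 and 10.55 in control cells. Probeset 1418673_at lay at 8.09, 8.17 and 8.35 in v-Src, 9.70, 9.63 and 9.02 in STAT3-C, and 9.63, 9.29 and 9.30 in control cells. By both probesets the v-Src arrays stood apart below the other lines, which overlapped each other. Against control, Snai2 was 2.37-fold and 2.30-fold lower in v-Src cells (log2 differences -1.24 and -1.20, SE 0.13 and 0.12, adjusted p = 0.000554 and 0.000433). In STAT3-C cells the log2 differences from control were 0.07 (SE 0.17, adjusted p = 0.802) and 0.05 (SE 0.19, adjusted p = 0.879).

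Zeb2 rose in v-Src cells by 2 probesets, of which 1 also rose in STAT3-C cells, while none of the 4 Zeb1 probesets was called. The leading Zeb2 probeset, 1422748_at, lay at log2 levels of 9.16, 9.14 and 9.69 in v-Src, 7.85, 7.89 and 8.46 in STAT3-C, and 8.43, 7.95 and 8.20 in control cells. The v-Src arrays were above all others, and STAT3-C and control arrays overlapped. The rise in v-Src over control was 2.20-fold (log2 difference 1.14, SE 0.18, adjusted p = 0.0035), and STAT3-C minus control was -0.13 (SE 0.19, adjusted p = 0.647). Probeset 1434298_at ordered the lines differently, at 7.56, 7.42 and 8.06 in v-Src, 8.13, 8.07 and 7.49 in STAT3-C, and 6.95, 6.71 and 6.78 in control cells. Here both transfected lines stood above control and overlapped each other. The log2 difference from control was 0.87 in v-Src (SE 0.17, adjusted p = 0.0079) and 1.08 in STAT3-C (SE 0.17, adjusted p = 0.00218). The remaining 3 Zeb2 probesets were not called. Their log2 differences from control in v-Src and then STAT3-C were 0.52 and 0.50 for 1456389_at, -0.10 and -0.16 for 1458941_at, and 0.24 and -0.50 for 1454200_at. The probesets of Zeb2 thus disagree on STAT3-C, and the parts of the transcript they read were not analysed here. Zeb1, read by 1418926_at, lay at 10.11, 10.19 and 10.45 in v-Src, 10.17, 10.41 and 10.21 in STAT3-C, and 10.13, 9.62 and 10.10 in control cells. Control replicate 2 was the lowest of these arrays, the v-Src arrays overlapped control and the STAT3-C arrays lay just above it, with log2 differences from control of 0.30 (SE 0.16, adjusted p = 0.212) in v-Src and 0.31 (SE 0.15, adjusted p = 0.167) in STAT3-C. Zeb1 probeset 1443005_at passed the p-value threshold but not the fold threshold, at 0.30 in v-Src (adjusted p = 0.029) and 0.48 in STAT3-C (adjusted p = 0.0152).

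**Figure D2:**
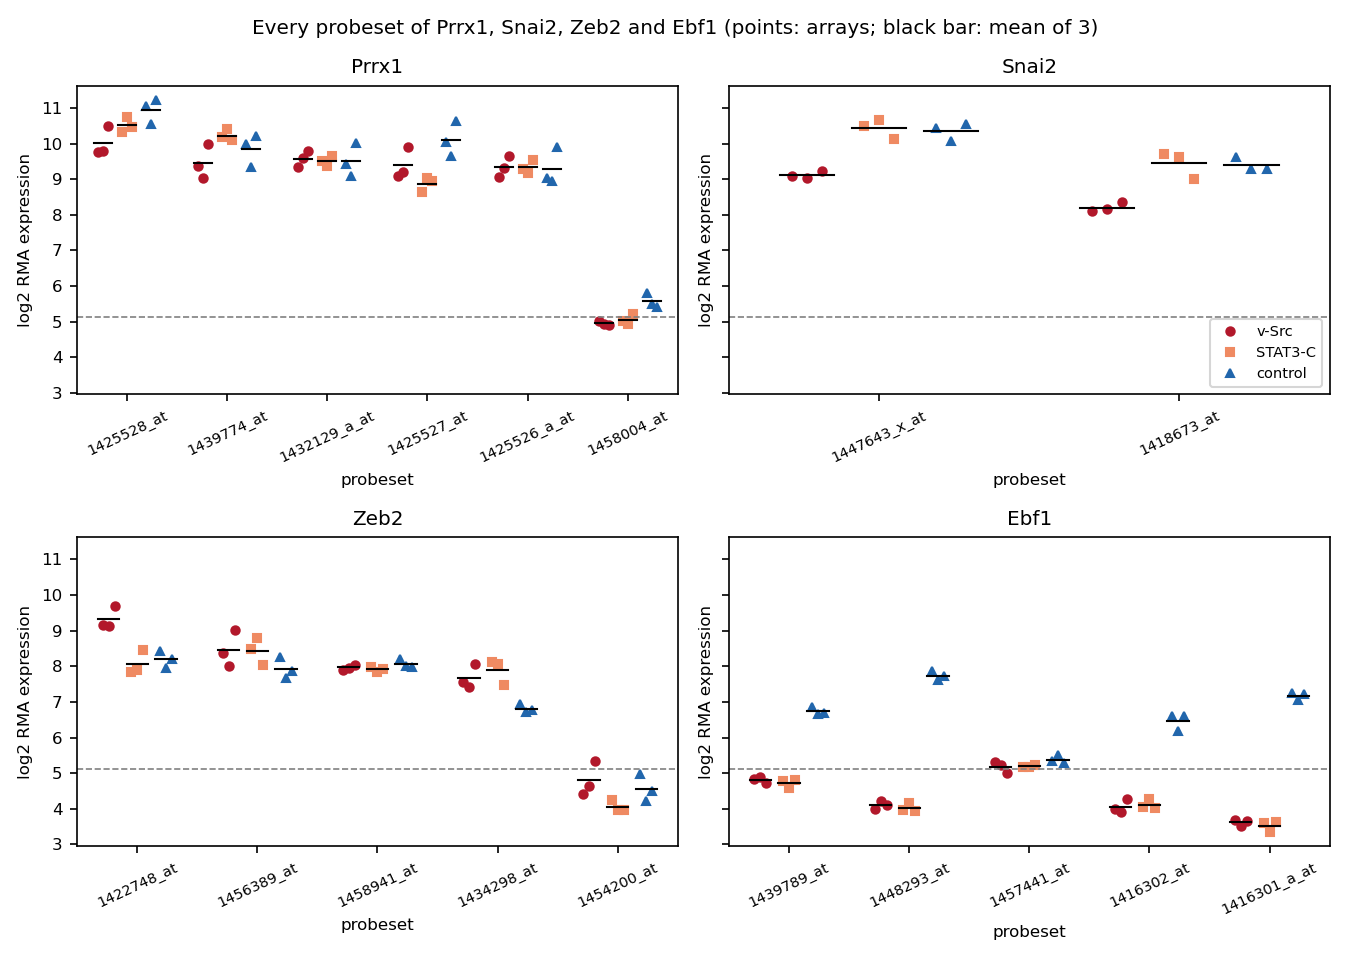
Log2 RMA expression (y axis) of every probeset of Prrx1, Snai2, Zeb2 and Ebf1 (x axis) on the 3 arrays of each line (points), with the mean as a black bar and the mean lower quartile of the arrays as a dashed line. The 2 Snai2 probesets give 1 pattern and 4 of 5 Ebf1 probesets fall to below the dashed line, whereas the probesets of Prrx1 and of Zeb2 order the lines differently.

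The 6 Prrx1 probesets did not give 1 answer. PRRX1 marks stromal and limb bud mesenchyme. The leading probeset, 1425528_at, lay at log2 levels of 9.75, 9.78 and 10.49 in v-Src, 10.34, 10.74 and 10.46 in STAT3-C, and 11.06, 10.56 and 11.22 in control cells. The v-Src arrays were below the control arrays, with v-Src replicate 6 close to control replicate 2, and STAT3-C overlapped both. The fall in v-Src was called (log2 difference -0.94, SE 0.24, adjusted p = 0.0259) but not without v-Src replicate 1 or 5 or control replicate 1 or 3, and STAT3-C minus control was -0.43 (SE 0.18, adjusted p = 0.117). Probeset 1425527_at lay at 9.09, 9.20 and 9.89 in v-Src, 8.64, 9.04 and 8.94 in STAT3-C, and 10.03, 9.66 and 10.62 in control cells. By this probeset the STAT3-C arrays were lowest and apart from control, a fall of 2.35-fold (log2 difference -1.23, SE 0.23, adjusted p = 0.0045), while v-Src overlapped control (-0.71, SE 0.29, adjusted p = 0.112). Probeset 1458004_at, near background on the v-Src arrays, was called lower in v-Src (-0.62, SE 0.11, adjusted p = 0.00576), though not without control replicate 1, and 3 further Prrx1 probesets were not called in any comparison. Prrx2, the paralog, was read by 1432331_a_at at 9.61, 8.78 and 9.52 in v-Src, 9.51, 9.68 and 9.32 in STAT3-C, and 9.13, 8.36 and 8.98 in control cells. The STAT3-C arrays were above the control arrays and the v-Src arrays overlapped them. Prrx2 rose 1.60-fold in STAT3-C over control (log2 difference 0.68, SE 0.20, adjusted p = 0.0331), a call lost without STAT3-C replicate 1 or 2 or control replicate 2 or 3, after median centring (adjusted p = 0.0533) and in the fit of all 9 arrays (adjusted p = 0.0552), and v-Src minus control was 0.48 (SE 0.27, adjusted p = 0.234).

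Tcf21 was not called in any comparison. Its leading probeset, 1458887_at, lay at log2 levels of 6.22, 6.39 and 6.14 in v-Src, 6.45, 6.34 and 6.79 in STAT3-C, and 5.95, 6.12 and 5.97 in control cells. Both transfected lines lay just above control, but the log2 difference of 0.51 in STAT3-C (SE 0.13, adjusted p = 0.0207) was under the fold threshold and that of 0.24 in v-Src (SE 0.09, adjusted p = 0.106) passed neither threshold. The other Tcf21 probeset, 1417447_at, was near background on all 9 arrays.

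**Figure D3:**
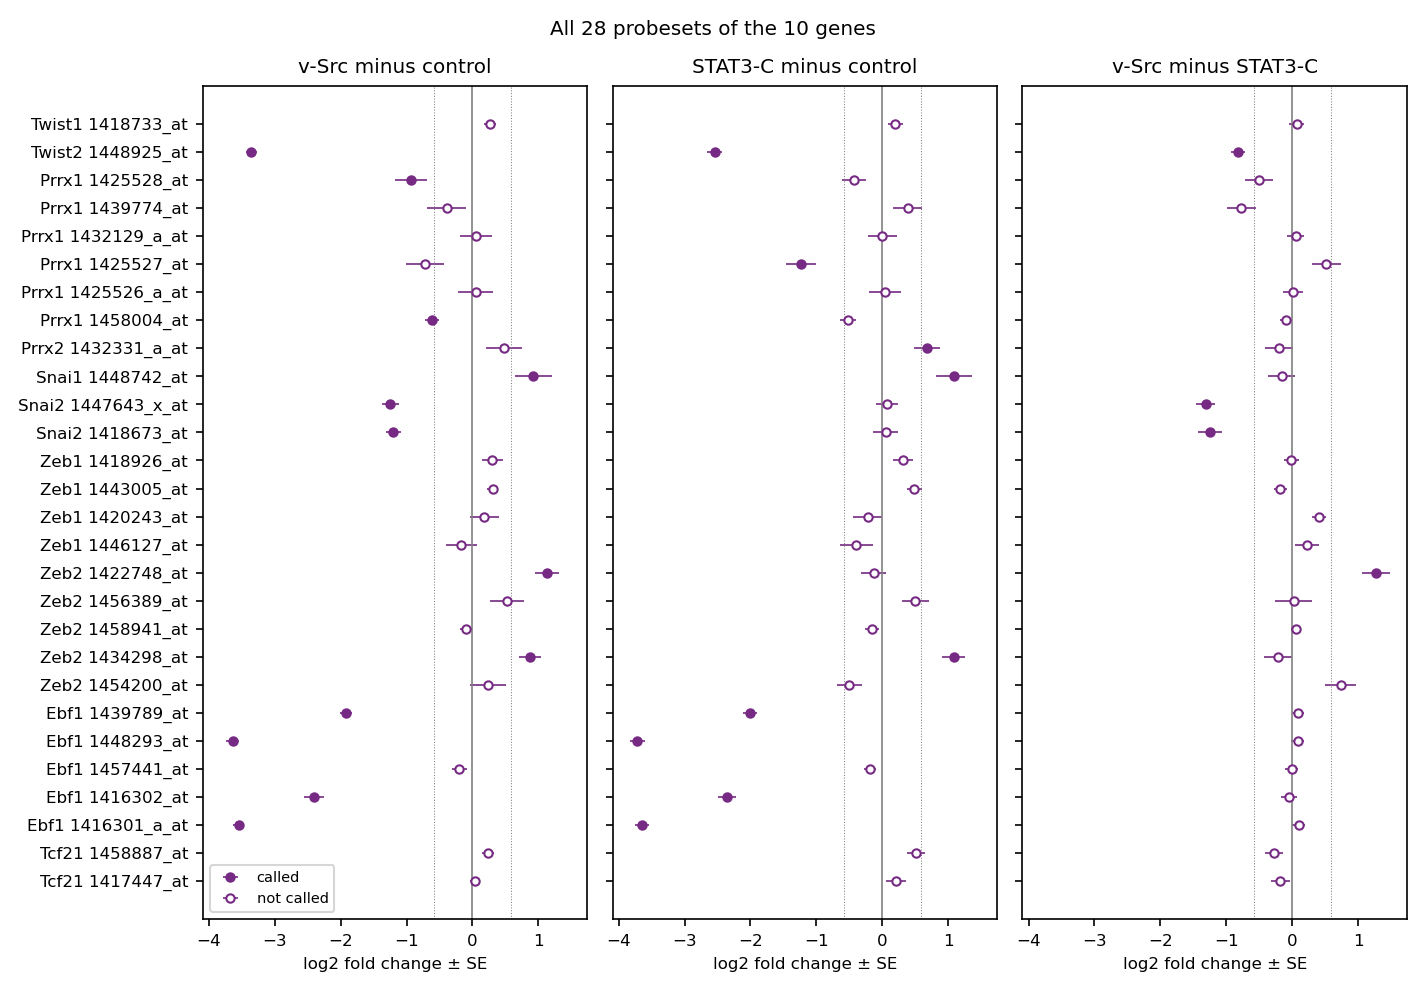
Log2 fold change with its SE (x axis) of all 28 probesets (rows) in v-Src minus control, STAT3-C minus control and v-Src minus STAT3-C, with called probesets as filled points and the 1.5-fold limits as dotted lines. The lowest points are those of Ebf1 and Twist2 against control, and only Twist2, Snai2 and 1 Zeb2 probeset are called between the transfected lines.

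Set directly against each other, v-Src and STAT3-C cells differed in 4 of the 28 probesets, 1 higher and 3 lower in v-Src, where 4.99% and 5.33% of all probesets were called. By leading probeset, 1 gene was higher and 2 were lower in v-Src, beside 4.84% and 6.83% of all genes. Snai2 was 2.49-fold lower in v-Src cells by 1447643_x_at (log2 difference -1.31, SE 0.14, adjusted p = 0.00137) and 2.37-fold lower by 1418673_at (-1.25, SE 0.18, adjusted p = 0.00398). Zeb2 was 2.41-fold higher by 1422748_at (1.27, SE 0.21, adjusted p = 0.00604) and not called by 1434298_at (-0.21, adjusted p = 0.539). Twist2, described above, was the remaining gene. Snai1 (-0.16, adjusted p = 0.626), Zeb1 (-0.01, adjusted p = 0.956), Twist1 (0.07, adjusted p = 0.717), Prrx2 (-0.20, adjusted p = 0.568) and Tcf21 (-0.27, adjusted p = 0.196) did not pass the test by their leading probesets, which does not show that they were equal. Prrx1 probeset 1439774_at missed narrowly, at -0.77 (SE 0.22, adjusted p = 0.0503). Without v-Src replicate 1 the number called higher was 2, and without v-Src replicate 6 the number called lower was 5.

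Twist2 and Ebf1 were the only members whose leading probeset spanned at least 2 log2 units between line means, 3.36 and 2.01. The genes whose levels followed theirs most closely were ranked by the root mean square difference over the 9 arrays, after each gene's own mean was removed. For Twist2 these were Csrp1 (0.208) and Sash1 (0.234), with mean log2 levels of 6.97 and 7.96 in v-Src, 7.85 and 8.46 in STAT3-C, and 10.56 and 10.89 in control cells. For Ebf1 these were Birc3 (0.0847) and Pla2g15 (0.112), at 6.09 and 5.56 in v-Src, 5.93 and 5.62 in STAT3-C, and 7.89 and 7.62 in control cells. The Ebf1 ranking rests on 1439789_at alone, whose fall was smaller than that of 1448293_at (log2 differences from control of -3.64 in v-Src and -3.72 in STAT3-C). A probeset with a larger fall could rank other genes first. The 9 arrays come from 3 lines, so that this likeness is mainly that of 3 means.

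The dimer partners and inhibitors of the TWIST factors were measured on the same arrays, and 3 of 4 ID inhibitors, Id1, Id2 and Id3, rose in both transfected lines while Id4 fell. ID proteins lack a basic region and hold E proteins away from DNA and from partners such as TWIST. Of 7 genes of this list, 3 were called higher and 2 lower in v-Src cells, and 3 higher and 3 lower in STAT3-C cells. Over all genes, 9.54% were called higher and 10.4% lower in v-Src and 11.9% and 10.3% in STAT3-C, shares that apply to each list that follows. Id1 averaged 10.27 in v-Src, 9.36 in STAT3-C and 8.01 in control cells on the log2 scale, with log2 differences from control of 2.26 (SE 0.34, adjusted p = 0.00266) in v-Src and 1.35 (SE 0.29, adjusted p = 0.00869) in STAT3-C. Id2 averaged 9.06 in v-Src, 9.99 in STAT3-C and 6.95 in control cells, with log2 differences from control of 2.11 (SE 0.25, adjusted p = 0.000863) in v-Src and 3.04 (SE 0.24, adjusted p = 6.15e-05) in STAT3-C. Id3 averaged 10.47 in v-Src, 11.67 in STAT3-C and 8.15 in control cells, with log2 differences of 2.32 (SE 0.30, adjusted p = 0.00134) in v-Src and 3.52 (SE 0.28, adjusted p = 6.85e-05) in STAT3-C. Tcf4, an E protein, fell by 1.54 in v-Src (SE 0.12, adjusted p = 0.00017) and by 1.28 in STAT3-C (SE 0.09, adjusted p = 3.74e-05) on the log2 scale. Id4 fell in both lines, at -0.91 in v-Src (adjusted p = 0.0196) and -1.15 in STAT3-C (adjusted p = 0.00392), and the E protein gene Tcf3 fell in STAT3-C (-1.08, adjusted p = 7.31e-05). Tcf12, the other E protein gene of the list, was not called in either line. Its log2 difference was -0.0047 in v-Src (adjusted p = 0.977) and 0.49 in STAT3-C (adjusted p = 0.00896), the latter under the fold threshold. The Id4 call in v-Src was lost without v-Src replicate 5 or 6 or control replicate 1 or 3, which left 1 gene lower, or 2 without v-Src replicate 6, where Tcf3 was called. Between the transfected lines Id1 was higher in v-Src (0.91, adjusted p = 0.0401) and Id2 and Id3 were lower (-0.93, adjusted p = 0.0269 and -1.20, adjusted p = 0.0177), but these calls were fragile. That of Id1 was lost when v-Src replicate 1 or 5 or each STAT3-C replicate in turn was left out, and those of Id2 and Id3 when v-Src replicate 5 or 6, or replicate 1 or 2 of STAT3-C, was left out.

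Among 14 relatives and interactors of the 10 factors, 1 was called higher and 1 lower in each transfected line. Zfp521, a zinc finger protein known to bind and restrain EBF1, fell in both lines, with log2 differences from control of -5.02 in v-Src (SE 0.10, adjusted p = 6.12e-07) and -3.59 in STAT3-C (SE 0.12, adjusted p = 9.73e-07) and means of 4.34 in v-Src, 5.76 in STAT3-C and 9.35 in control cells. Its v-Src arrays were near background, so that the v-Src value is a lower bound, and the direct difference of v-Src minus STAT3-C was also called (-1.42, SE 0.09, adjusted p = 0.000297). Ebf3, a paralog of Ebf1, rose in both lines, by 0.87 in v-Src (SE 0.09, adjusted p = 0.000618) and 1.02 in STAT3-C (SE 0.11, adjusted p = 0.000333). Snai3 was also called higher in STAT3-C without STAT3-C replicate 2 or control replicate 2, which made 2 genes higher. Of 7 measured genes that EBF1 is known to switch on in B cells, Pou2af1 alone was called higher in v-Src (1.04, SE 0.25, adjusted p = 0.021) and in STAT3-C (2.15, SE 0.25, adjusted p = 0.000423) and none was lower. In control cells the median level of these 7 genes was 5.82, under the mean array median of 6.35, and 2 had means near background. They thus had little room to fall, and the absence of falls says little about EBF1. The v-Src call was lost without v-Src replicate 1 or 6 or control replicate 1 or 3, and Pou2af1 was near background in control cells, at a mean of 4.24.

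Of 15 measured genes for corepressors of these factors and regulators of their stability, 1 was called higher and 5 lower in v-Src, and 1 higher and 4 lower in STAT3-C cells, with median log2 differences of -0.40 and -0.27 beside 0.02 and 0.04 over all genes. Ctdsp1, a phosphatase that stabilises SNAI1, fell by 0.79 in v-Src (SE 0.08, adjusted p = 0.000468) and by 1.44 in STAT3-C (SE 0.12, adjusted p = 9.49e-05) on the log2 scale. Btrc, a subunit of the ubiquitin ligase that targets SNAI1, fell by 0.72 in v-Src (adjusted p = 0.00045) and by 0.66 in STAT3-C (adjusted p = 0.000962). Ezh2, the histone methyltransferase of Polycomb repression, was lower by 1.20 in v-Src (adjusted p = 0.0183) and 0.70 in STAT3-C (adjusted p = 0.048), calls that were lost in v-Src without v-Src replicate 1 or 6 or control replicate 1 or 3, and in STAT3-C when each STAT3-C replicate in turn or control replicate 1 or 3 was left out. Hdac1, a histone deacetylase, and Fbxo45, a ubiquitin ligase subunit, were called lower and Gsk3b, the kinase that marks SNAI1 for degradation, higher in v-Src cells (-0.70, -0.66 and 0.69). In STAT3-C cells Fbxl14, another ligase subunit for these factors, was lower (-0.85) and Lats2, a kinase of the Hippo pathway, higher (0.92). In v-Src minus STAT3-C, Lats2 was called lower (-1.07, SE 0.17, adjusted p = 0.00506) and Ctdsp1 higher (0.65, SE 0.12, adjusted p = 0.00969). The Ctdsp1 call in that comparison was lost without STAT3-C replicate 3. Without control replicate 3, Fbxw7 was called higher in STAT3-C too, which made 2.

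Of 12 genes of the TGF-beta and SMAD pathway, a known inducer of SNAI and ZEB genes, 3 were called higher and 2 lower in v-Src, and 1 higher and 2 lower in STAT3-C cells. Tgfb1, the ligand, rose by 1.99 in v-Src (SE 0.10, adjusted p = 2.64e-05) and 1.24 in STAT3-C (SE 0.10, adjusted p = 7.36e-05), and the direct difference of 0.75 was called (SE 0.12, adjusted p = 0.00547). Tgfbr1, the type I receptor, averaged 11.20 in v-Src, 9.03 in STAT3-C and 8.88 in control cells, and the log2 difference was 2.33 in v-Src (SE 0.15, adjusted p = 7.04e-05), 0.15 in STAT3-C (SE 0.13, adjusted p = 0.442) and 2.17 directly (SE 0.17, adjusted p = 0.000543). Smad4, the shared signal carrier, fell by 0.95 in v-Src and by 0.71 in STAT3-C, and Ski, an inhibitor of SMADs, fell by 0.96 and by 1.40. The remaining call, Hmga2 in v-Src (0.70, adjusted p = 0.0289), was lost when any array other than control replicate 3 was left out, and without control replicate 3 Hmga2 was also called in STAT3-C, which made 2 higher.

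Genes of epithelial cells, several of which SNAI and ZEB factors are known to repress, were called in small number. Of 35 measured epithelial genes, 1 was called higher in v-Src and 2 in STAT3-C cells, and none lower, beside 9.54% higher and 10.4% lower of all genes in v-Src and 11.9% and 10.3% in STAT3-C. The median log2 difference was 0.06 in both lines, beside 0.02 in v-Src and 0.04 in STAT3-C over all genes. In control cells the median level of the 35 genes was 6.16, under the mean array median of 6.35, and 9 had means near background. Many thus had little room to fall, and the lack of calls lower does not show stable expression. Cdh1, which encodes E-cadherin, lay near background with means of 4.48 in v-Src, 4.65 in STAT3-C and 4.33 in control cells. Pkp1, a desmosome protein, was higher in v-Src (1.31, SE 0.33, adjusted p = 0.0241) and in STAT3-C (0.91, SE 0.28, adjusted p = 0.0417), and Pkp3 in STAT3-C (0.74, SE 0.13, adjusted p = 0.00302). Pkp1 lost its call in v-Src without v-Src replicate 1 or 6 and in STAT3-C when each STAT3-C replicate in turn or control replicate 3 was left out. In v-Src cells Pkp3 was added without control replicate 1 or 2, Pkp3 and Krt19 without v-Src replicate 5, and Krt18 was called lower without v-Src replicate 5 or control replicate 1. In v-Src minus STAT3-C, the adhesion gene Epcam was called higher (0.66, SE 0.08, adjusted p = 0.00196). Its means of 9.71 in v-Src, 9.05 in STAT3-C and 9.37 in control cells were the highest of the 35 epithelial genes in each line. Like that of Snai2, its leading probeset has the suffix that marks probes that may also read other sequences. Whether this signal came from Epcam transcripts was not tested.

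Of the mesenchymal effector genes, 13 of 24 were lower and 2 higher in v-Src, 14 lower and 2 higher in STAT3-C, with median log2 differences of -1.15 and -1.03 beside 0.02 and 0.04 over all genes. These 24 include the 10 fibroblast markers above, so that the 2 counts are not separate. Of all genes, 10.4% were lower and 9.54% higher in v-Src, and 10.3% lower and 11.9% higher in STAT3-C, and the number called higher was near that share. The largest falls were those of Cdh11, a cadherin of mesenchymal cells, and of the matrix protein genes Vcan, Postn and Tnc. The log2 difference from control was -7.54 in v-Src and -7.60 in STAT3-C for Cdh11, -6.14 in v-Src and -6.34 in STAT3-C for Vcan, -5.90 in v-Src and -6.25 in STAT3-C for Postn, and -5.58 in v-Src and -5.50 in STAT3-C for Tnc. Cdh11, Vcan and Tnc were near background on all 6 arrays of the transfected lines, so that their falls are lower bounds. Acta2, the smooth muscle actin gene, fell similarly far, at -5.08 in v-Src and -5.21 in STAT3-C. Those higher were Fn1 (fibronectin, 1.13) and S100a4 (0.65) in v-Src, and Cdh2 (N-cadherin, 0.96) and S100a4 (0.89) in STAT3-C. The S100a4 call in v-Src was lost without v-Src replicate 1 or 6 or control replicate 1 or 2. Pdgfrb, a receptor of mesenchymal cells, stood furthest apart between the transfected lines in this list, at means of 5.45 in v-Src, 8.58 in STAT3-C and 10.50 in control cells and -3.13 in v-Src minus STAT3-C (SE 0.34, adjusted p = 0.00138). In the same direct comparison the membrane protease gene Mmp14 was higher (1.14, adjusted p = 0.00267) and Fstl1 (-1.26, adjusted p = 0.00452) and the collagen gene Col3a1 (-1.25, adjusted p = 0.0233) were lower, Col3a1 not so when v-Src replicate 1 or each STAT3-C replicate in turn was left out.

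Of 46 other transcription factors of mesenchymal lineages, 5 were called higher and 11 lower in v-Src, and 5 higher and 13 lower in STAT3-C cells, with median log2 differences of 0.00 and 0.07 beside 0.02 and 0.04 over all genes. The number higher was near the 9.54% and 11.9% of all genes, and that lower stood above the 10.4% and 10.3% of all genes. Foxd1, a forkhead factor of kidney stroma, was near background in control cells and rose in both lines, with means of 7.76 in v-Src, 8.88 in STAT3-C and 4.91 in control cells and log2 differences from control of 2.85 (SE 0.11, adjusted p = 7.37e-06) and 3.96 (SE 0.17, adjusted p = 3.09e-06). Osr2, a zinc finger factor of palate and limb mesenchyme, fell by 2.51 in v-Src (SE 0.16, adjusted p = 6.63e-05) and by 2.35 in STAT3-C (SE 0.16, adjusted p = 2.76e-05). Foxc1, a forkhead factor of eye and skeletal mesenchyme, rose by 1.58 in v-Src (SE 0.08, adjusted p = 2.53e-05) and 1.77 in STAT3-C (SE 0.20, adjusted p = 0.000408). Tead1, the DNA-binding partner of YAP, fell by 1.70 in v-Src (SE 0.17, adjusted p = 0.000401) and by 1.5 in STAT3-C (SE 0.13, adjusted p = 8.58e-05). In v-Src minus STAT3-C, 3 of the 46 genes were called higher and 2 lower, beside 4.84% and 6.83% of all genes. Those lower were Foxd1 (-1.11, SE 0.15, adjusted p = 0.00297) and Klf4 (-0.95, adjusted p = 0.0159). The Klf4 call was lost without v-Src replicate 1 or replicate 1 or 2 of STAT3-C. Foxc2 (0.88, adjusted p = 0.00142) and Mef2c (0.77, adjusted p = 0.00903) were among those higher. With an array left out, 2 to 4 were higher and 1 to 3 lower. Without STAT3-C replicate 2, the number called higher in STAT3-C cells was 3.

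**Figure D4:**
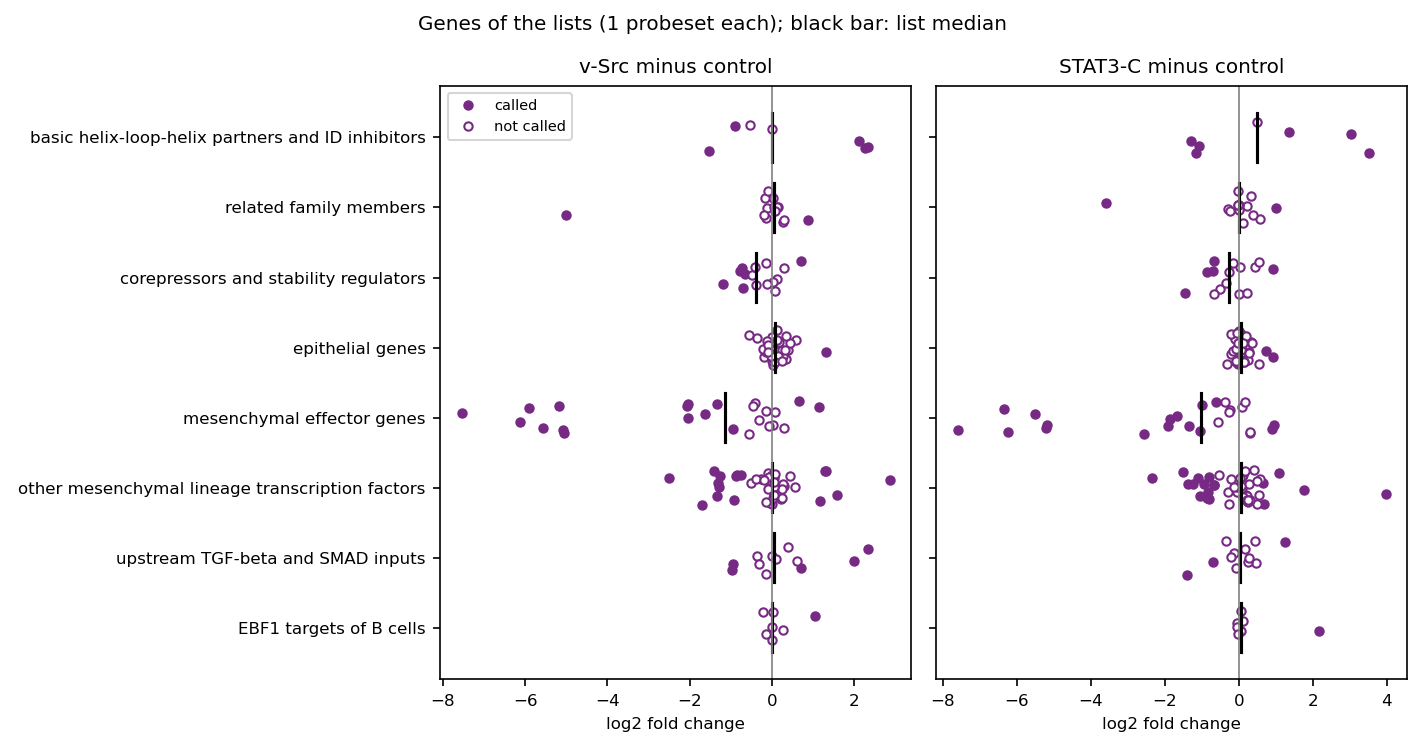
Log2 fold change (x axis) of each measured gene of 8 gene lists (rows) in v-Src minus control and STAT3-C minus control, read by the leading probeset, with called genes as filled points and list medians as black bars. The mesenchymal effector genes have medians of -1.15 and -1.03, the epithelial genes lie around 0, and Id1, Id2 and Id3 form the points to the right in the top row.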

How the data were processed

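Expression was measured on 9 Affymetrix whole-genome mouse arrays. The authors deposited log2 values made with RMA, that is background correction, quantile normalization and summary of the probes of a probeset. Their methods describe RMA runs of each transfected line together with control, and how this applies to the single deposited control columns was not given in the sources used here, so that a run and a line cannot be told apart in the direct comparison. These log2 values were used as deposited, without further scaling or a filter on low values.

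After 64 control probesets were left out, 45037 were tested. The platform annotation gave 1 symbol to 34945 probesets, several to 932 and none to 9160, and 34741 matched current RefSeq genes by gene number. Each comparison was fitted on its 6 arrays with limma 3.58.1 (lmFit and eBayes) in R 4.3.3, and a call needed an adjusted p-value under 0.05, by Benjamini-Hochberg over all probesets, and a fold of at least 1.5. With 3 arrays against 3, an exact permutation test could not go below p = 0.1 and was not used. Each p-value sets the difference between lines against the spread between passages within lines, and not against that between independently derived lines. Fibroblast, leukocyte, endothelial and epithelial markers were checked as lists, and 160 of 169 list entries were measured.

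On data simulated with independent normal noise for v-Src against control over 45037 probesets, limma recovered 96% of 2-fold and 99% of 4-fold changes, with 1 false call. These values were 94%, 100% and 10 false calls for STAT3-C against control, and 97%, 100% and 13 for v-Src against STAT3-C. Alternatives were SAM, 1 fit of all 9 arrays, repeated quantile normalization, median centring, a filter, other thresholds, other limma settings, the mean of a gene's probesets, a replicate block and leaving out each array. Same-numbered STAT3-C and control arrays did not deviate together (correlations of -0.09, 0.06 and 0.04). The 10 genes and the 8 gene lists were chosen with earlier results of these data known. All 28 probesets were tested and drawn, though not all were described with values. List genes were named where they were among the 4 of largest change called in a list and comparison. Id4, Tcf3, Tcf12, Gsk3b, Fbxo45, Hmga2, Fn1, S100a4, Cdh1, Cdh2, Acta2, Snai3, Fbxw7, Krt18 and Krt19 were named after their values were seen. The cell type markers Vim, Col1a2, Fap, Ptprc and Itgam were also named outside the rule of largest change. Figures were drawn with matplotlib 3.10.9.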

Additional observations from a re-analysis of the deposited data

Results flagged for a closer look

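For 2 of the 10 genes and for 1 probeset of another, the change from control differed between the transfected lines by a test of that difference itself, the direct comparison of v-Src with STAT3-C by limma. In v-Src minus STAT3-C, the log2 difference was -0.82 for Twist2 (adjusted p = 0.00254), -1.31 for Snai2 by 1447643_x_at (adjusted p = 0.00137) and -1.25 by 1418673_at (adjusted p = 0.00398), and 1.27 for Zeb2 by 1422748_at (adjusted p = 0.00604). Each of these 4 probesets showed the direction on all 3 arrays of a line against all 3 of the other, and each kept its call when any single array was left out.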

How the results depend on the processing

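Twist2, 4 Ebf1 probesets, Snai2 in v-Src and Zeb2 by 1422748_at in v-Src kept their calls when any single array was left out. So did Zeb2 by 1434298_at in both transfected lines and Prrx1 by 1425527_at in STAT3-C. Of the 10 genes, the 2 higher in v-Src became 1 with median centring, a fold of at least 2, an adjusted p under 0.01 or the mean of a gene's probesets (1 to 2 with an array left out). With the mean of its probesets, Zeb2 lost its call in v-Src (log2 difference 0.53, adjusted p = 0.0588 by limma). By that mean Zeb2 was also not called in STAT3-C (0.16, adjusted p = 0.35) or in v-Src minus STAT3-C (0.37, adjusted p = 0.135). Of the 4 lower in v-Src, Prrx1 lost its call at a fold of at least 2 and at an adjusted p under 0.01. It was also lost with the mean of its probesets (log2 difference -0.43, adjusted p = 0.155 by limma), and 3 to 4 genes were lower with an array left out. The 2 higher in STAT3-C became 1 in the fit of all 9 arrays, with median centring or a fold of 2, and 0 at p under 0.01 (0 to 2 with an array left out). With median centring the split was thus 1 higher and 4 lower in v-Src, and 1 higher and 2 lower in STAT3-C. The filter above the median level removed the 4 called Ebf1 probesets and Prrx1 1458004_at, and left 4 of 9 probesets lower in v-Src, 2 of 6 in STAT3-C, and 1 of 2 genes lower in STAT3-C. Probesets higher in v-Src became 1 of 3 at a fold of 2, and in STAT3-C 5 without a fold threshold and 1 at p under 0.01 (1 to 3 with an array left out). In v-Src minus STAT3-C, probesets higher became 2 without a fold threshold, with SAM or with the trend and robust settings (1 to 2 with an array left out), probesets lower ranged over 3 to 5 with an array left out, genes lower became 1 at a fold of 2, and genes higher became 0 with the mean of probesets. With the replicate block, STAT3-C had 3 probesets higher and 6 lower, the same counts as without it, and the block moved no count of member calls. Whether equal replicate numbers mark a shared passage or batch was not given in the sources used here. The cause of these shifts was not tested where the setting itself does not give it.

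Signs that turned belonged to differences that were not called. Median centring gave in v-Src minus control -0.015 for Prrx1 1432129_a_at, -0.019 for 1425526_a_at and -0.033 for Tcf21 1417447_at, in STAT3-C minus control -0.043 and -0.0086 for the same Prrx1 probesets, and in v-Src minus STAT3-C -0.011 for 1425526_a_at and -0.00012 for Zeb2 1456389_at. Repeated quantile normalization gave -0.035 for Prrx1 1432129_a_at and -0.036 for Snai2 1447643_x_at in STAT3-C minus control, and 0.10 for Zeb1 1418926_at in v-Src minus STAT3-C. With an array left out, v-Src minus control ranged over -0.16 to 0.31 for Prrx1 1432129_a_at, -0.13 to 0.36 for 1425526_a_at, -0.056 to 0.42 for Zeb1 1420243_at, -0.45 to 0.0014 for 1446127_at and -0.041 to 0.44 for Zeb2 1454200_at. STAT3-C minus control ranged over -0.21 to 0.26 and -0.14 to 0.34 for the same Prrx1 probesets, -0.067 to 0.22 and -0.078 to 0.27 for Snai2 1447643_x_at and 1418673_at, and -0.46 to 0.013 for Zeb1 1420243_at. v-Src minus STAT3-C ranged over -0.028 to 0.12 for Twist1, -0.055 to 0.17 and -0.14 to 0.15 for the same Prrx1 probesets, -0.35 to 0.062 for Prrx2, -0.35 to 0.00035 for Snai1, -0.11 to 0.061 for Zeb1 1418926_at, -0.25 to 0.25 for Zeb2 1456389_at, and -0.079 to 0.087 and -0.16 to 0.027 for Ebf1 1457441_at and 1416302_at. The number of arrays limits the precision of every value, and levels below the lower quartile have only a bound. Over all probesets, v-Src minus control had 1841 higher and 1669 lower at a fold of 2, and 6771 and 6011 without a fold threshold; STAT3-C minus control had 1955 and 1758, and 7302 and 6049; v-Src minus STAT3-C had 725 and 771, and 4578 and 4546, and 1466 higher at p under 0.01.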
